A study of Mus musculus with 2 samples.

Results

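The cytoplasmic ribosomal protein genes encode the proteins of the 80S ribosome of the cytoplasm. Members were chosen by gene symbol, taking names of the Rpl and Rps series with a number, plus the stalk genes Rplp0, Rplp1 and Rplp2 and the small-subunit gene Rpsa. Of 32285 genes in the count matrices, 83 symbols matched, and 81 had at least 200 UMIs over both libraries and were kept. UMIs, or unique molecular identifiers, count captured RNA molecules. The members just inside the limit were Rpl3l with 2928 UMIs and Rpl7l1 with 7509 UMIs, and those left out were Rpl39l with 150 UMIs and Rpl10l with 8 UMIs. Rps3a1 and Fau also encode ribosomal proteins, but their symbols did not match, so they were described with the other translation genes.

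The data were single-cell RNA counts of lungs from female BALB/cJ mice aged 12 weeks that carried 4T1 mammary tumors for 14 days. One group received intravenous saline and the other intravenous PLG nanoparticles (NP), which are cargo-free polymer particles, every 3 days from 1 day after inoculation. Each group was 1 library from pooled lungs, of 4 mice by the sample labels and 5 by the methods of the study, so no test over animals was possible and every difference below compares 2 libraries. All mice carried tumors and all received injections, so no tumor-free lung served as a baseline.

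Each ribosome holds about the same set of ribosomal proteins, and cells make them in matched amounts. Their messenger RNAs are among the most abundant in growing cells and typically start with a C followed by pyrimidines, the 5′ terminal oligopyrimidine (TOP) motif, through which the mTOR pathway adjusts their translation. Neutrophils leave the bone marrow with few ribosomes, as most of their granule proteins are made earlier, while lymphocytes keep ribosomal protein RNA at a high share.

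The RNA start sites of 61 members were in a RefSeq promoter table on GRCm38.p6. A C at an annotated start followed by 4 pyrimidines was present in 13 of these 61 members, or 21.3%, against 3.01% of all 27025 symbols of the table. It was present in 4 of 16 other translation genes of TOP type with an entry, and in 0 of 69 genes for mitochondrial ribosomal proteins. Windows of 30 bases on the strand of the gene, from 10 bases before the annotated start, are shown for members that return in the results, with the longest run of C and T within 10 bases of the start in capitals. The first 5 have the motif at the annotated start, and the last 5 lack it there. These 10 are examples, and the ratios of all members with an entry, split by the motif, are given below.
Rps6, chr4:86857348-86857377, minus strand: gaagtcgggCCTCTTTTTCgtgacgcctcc
Rps27, chr3:90213629-90213658, minus strand: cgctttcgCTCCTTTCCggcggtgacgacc
Rpl38, chr11:114668570-114668599, plus strand: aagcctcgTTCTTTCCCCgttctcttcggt
Rplp2, chr7:141447641-141447670, plus strand: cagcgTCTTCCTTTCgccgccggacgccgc
Rps21, chr2:180257369-180257398, plus strand: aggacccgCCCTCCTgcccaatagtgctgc
Rpsa, chr9:120127756-120127785, plus strand: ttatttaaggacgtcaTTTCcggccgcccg
Rplp0, chr5:115559457-115559486, plus strand: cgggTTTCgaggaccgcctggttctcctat
Rpl10a, chr17:28328461-28328490, plus strand: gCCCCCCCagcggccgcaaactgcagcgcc
Rps4x, chrX:102189372-102189401, minus strand: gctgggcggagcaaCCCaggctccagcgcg
Rps28, chr17:33824543-33824572, minus strand: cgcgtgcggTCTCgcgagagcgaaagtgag
An annotated start can lie a few bases from the start that cells use, so the absence of these letters at that base says nothing about regulation of the gene.

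A barcode counted as a cell when it had between 500 and 5000 genes and a mitochondrial share below 7.5%, which left 8662 saline and 8333 NP cells with median depths of 6474.5 and 6008 UMIs. Of these barcodes, 21 occurred in both libraries. Cells were clustered without the ribosomal protein genes, and 13 classes were named from marker genes, leaving 312 saline and 695 NP cells unnamed. Dendritic cells other than plasmacytoid ones had a marker list, but no cluster took that name. Such cells can thus lie in other classes or among the unnamed, and their part in the class values was not tested. Barcodes with under 50 UMIs, which hold free RNA rather than cells, had a ribosomal protein share of 11.64% in saline and 14.05% in NP. The neutrophil RNAs S100a8 and S100a9 made up 1.99% of T cell UMIs in saline and 1.06% in NP, and 1.77% and 0.747% in endothelial cells. In NK cells and fibroblasts the order was turned, with 1.16% and 1.78%, and 0.798% and 1.15%. The part of free RNA in the class values was not tested beyond the subtraction given in the closing section. Intervals below are 95% exact or log-ratio intervals that cover counting error only.

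Ribosomal protein RNA took very different shares of the transcriptome in different cells of the lung. T cells had the highest share, with 32.85% of UMIs in saline and 33.21% in NP. B cells followed with 30.60% and 31.06%. Neutrophils had the lowest, with 3.82% in saline and 3.26% in NP, from 5650 and 3142 cells.

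Between these ends, plasmacytoid dendritic cells had shares of 19.48% in saline and 19.79% in NP, from 18 and 34 cells. Interstitial macrophages had 19.31% and 18.94%, and monocytes 18.07% and 18.03%. NK cells had 16.72% and 14.96%, and basophils 14.16% and 16.14% from 21 and 39 cells. These 5 classes lay below the B cells and above the alveolar macrophages in both libraries.

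Alveolar macrophages had 12.90% and 12.57%, and fibroblasts 11.81% and 11.00%. Epithelial cells had 9.48% and 9.51%, endothelial cells 8.87% and 9.66%, and mural cells 8.52% and 8.91%. The order of the classes was nearly the same in both libraries, with basophils and NK cells exchanging places, as did epithelial and endothelial cells. Neighbours in this order overlapped over cells: the middle 50% of monocytes lay at 15.76% to 20.39% in saline, and of interstitial macrophages at 15.49% to 23.35%.

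**Figure D1:**
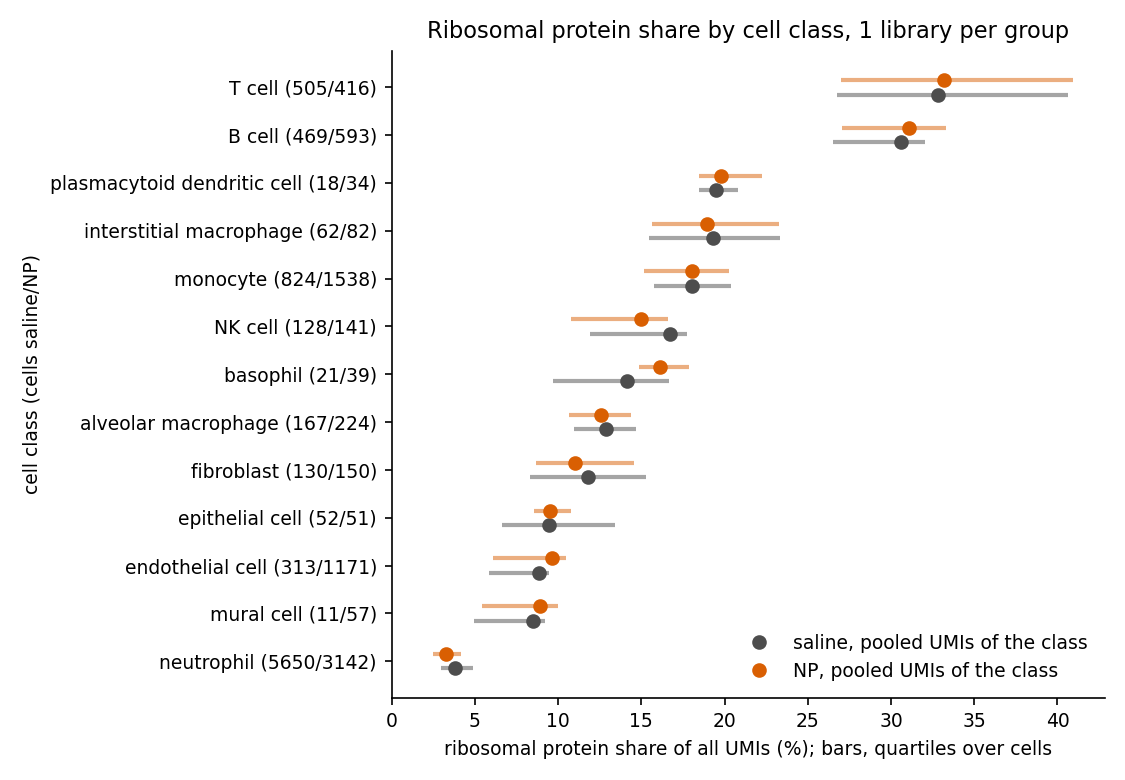
Share of all UMIs that came from the 81 members (x axis, percent) in 13 cell classes (y axis, with cell numbers), for saline in grey and NP in orange. Points are pooled UMIs of the class, bars the quartiles over cells. Neutrophils sit lowest at 3.82% and 3.26%, and T cells highest at 32.85% and 33.21%.

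The share also differed within a class. T cells of the cluster led by Trbc2, Ms4a4b, Trbc1 and Cd3g had 36.30% in saline and 37.36% in NP, and those of the cluster with Ccl5, a chemokine of activated and memory T cells, had 25.02% and 26.45%. Monocytes of the cluster with Ccr2 and F13a1, markers of classical monocytes, had 18.31% and 19.10%. Those of the cluster with Pou2f2 and Adgre4 had 14.75% and 15.02%. An unnamed cluster led by Camp, Ngp and Sox4, with 13 saline and 51 NP cells, had 25.09% and 24.83%, far above any neutrophil cluster. These pooled values hide unlike cells: the median cell had 16038 UMIs and a share of 28.31% in saline, but 1214 UMIs and 19.2% in NP. A second unnamed cluster, led by Camp, Ngp, Ltf and the cell cycle gene Ube2c, had 10.91% and 12.20%. The largest unnamed cluster, led by Cldn5, Ramp2, Igfbp7 and Camp, held 153 saline and 459 NP cells. It had 9.42% and 11.98%, a log2 ratio of 0.35, with 1486 and 1474 UMIs in the median cell. Cldn5 is a marker of endothelial cells, but these cells are not in the endothelial values, and their part in them under other clusterings was not tested.

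Over all cells together the share was higher with NP, at 12.78% against 9.62% in saline. Neutrophils were 65.23% of saline cells and 37.71% of NP cells. With the NP share of each class weighted by the saline mix of UMIs over classes, the value was 9.32%, and with the saline shares at the NP mix it was 12.87%. Each weighted value lay near that of the library whose mix it used.

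Neutrophils had a lower share in NP. The log2 ratio of their share, NP over saline, was -0.23 (95% interval -0.23 to -0.22), a share 0.855 times that of saline. The median cell had 3.84% in saline, with quartiles at 2.97% and 4.92%, and 3.20% in NP, with quartiles at 2.52% and 4.17%, so the cells of the libraries overlapped widely. NK cells were also lower in NP, with a log2 ratio of -0.16 (-0.17 to -0.15), and endothelial cells were higher, with 0.12 (0.12 to 0.13), or 0.30 when clustered at resolution 0.5. B cells had 0.02, or 0.14 with a mitochondrial limit of 5%. Monocytes at -0.00, T cells at 0.02 and alveolar macrophages at -0.04 were almost equal in both. The mix of clusters in a class differed, though. The T cell cluster with Ccl5 held 171 saline and 176 NP cells, at 0.08, and the other 334 and 240, at 0.04. The monocyte cluster with Pou2f2 held 100 and 403 cells, at 0.03, that with F13a1 579 and 715, at 0.06, and the third 145 and 420, at -0.03. The part of this mix in the class ratios was not tested.

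All 9 neutrophil clusters held cells of both libraries, in different proportions. Those led by Stfa2l1 and Ifitm1 held 1636 saline and 374 NP cells, and those led by Saa3 and Il1b held 1495 and 365. The cluster led by the interferon-induced genes Cxcl10 and Rsad2 held 54 and 699. The ribosomal protein share was lower in NP within each of the 9 neutrophil clusters. It was 3.81% against 3.22% in the Stfa2l1 cluster, 5.03% against 4.37% in the Saa3 cluster and 3.87% against 3.29% in the Cxcl10 cluster. The difference was smallest in the cluster that also held the muscle genes Acta1 and Ckm, with 4.20% and 4.07%.

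Depth was examined in ranges of UMIs per cell. Between 2000 and 4000 UMIs the neutrophil share was 5.19% in saline and 4.29% in NP, between 4000 and 8000 it was 3.94% and 3.16%, and between 8000 and 16000 it was 3.22% and 2.67%. Above 16000 UMIs it was 3.93% and 3.44%. Below 2000 UMIs the order was turned, with 3.67% from 101 saline cells and 6.61% from 33 NP cells. The NP share was thus the lower in each range but the shallowest.

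To follow maturation, each neutrophil was given an index from 0 to 1, the UMIs of late genes such as Cxcr2 and Il1b divided by those of late plus early genes such as Camp, Ngp and Ltf, which encode granule proteins made by precursors. Limits at the quintiles of both libraries gave 5 ranges, which are ranges of a score and not cell types. Camp was at 5338 CPM (counts per 1e6 UMIs of the range) in the first range of saline and 11530 CPM in that of NP, and under 22 CPM in the second to the fifth. By range, NP neutrophils leaned to the high end of the index, with 26.07% of them in the fifth range against 16.64% in saline. The late genes include the cytokine gene Il1b and the stress genes Btg1, Junb and Jund. The part of these genes in the spread of cells over the ranges was not tested. In the first range were 17.50% against 21.40%. Within that range, though, Ngp was at 13250 CPM in saline and 20490 CPM in NP, and Ltf at 2427 and 3992 CPM. The cluster led by Camp, Ngp and Ltf held 391 of 5650 saline and 288 of 3142 NP neutrophils. The libraries thus differed at both ends.

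Along this index the share of ribosomal protein UMIs was lowest in the second range and then higher toward the mature end. In saline it was 3.71%, 3.41%, 3.91%, 4.35% and 4.85% from the first to the fifth range. In NP it was 3.21%, 2.67%, 3.13%, 3.59% and 4.03%. The fifth range was above the first by 0.39 on the log2 scale in saline (0.38 to 0.39) and by 0.32 in NP (0.32 to 0.33).

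This direction depended on what the share was taken of. S100a8 and S100a9, which encode the subunits of calprotectin, made up 37.08% of saline UMIs in the first range and 11.68% in the fifth, and 40.40% and 13.33% in NP. With these 2 genes left out of the total, the saline share was 5.90%, 4.75%, 5.02%, 5.22% and 5.49%, and the NP share 5.39%, 3.94%, 4.19%, 4.43% and 4.64%. The fifth range then lay below the first, by log2 ratios of -0.10 in saline and -0.22 in NP, while the dip in the second range was larger. Absolute counts per cell went down throughout. The median cell held 524 ribosomal protein UMIs in the first range and 172 in the fifth in saline, and 448.5 and 143 in NP, beside median depths of 16536 and 3529.5 UMIs in saline. Fewer RNA molecules in a cell and less efficient capture of them cannot be told apart here.

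**Figure D2:**
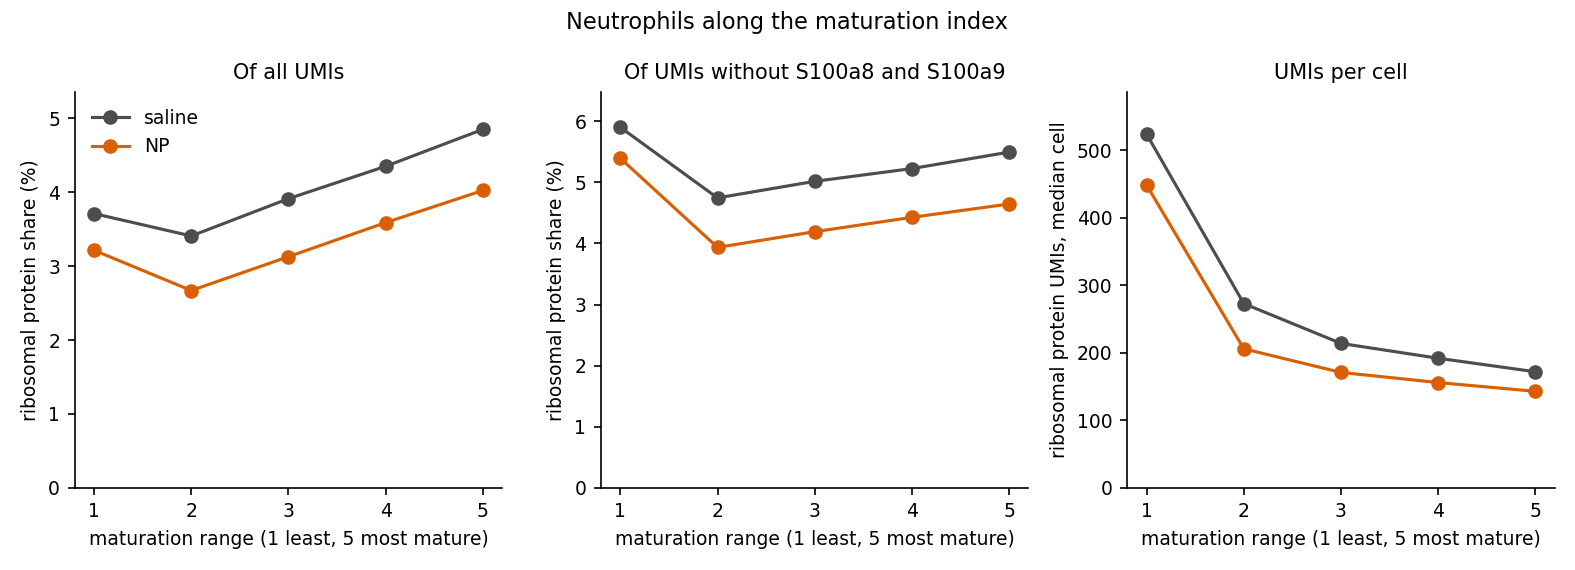
Neutrophils in 5 ranges of the maturation index (x axis), saline in grey and NP in orange. The left panel gives the ribosomal protein share of all UMIs, the middle panel the share without S100a8 and S100a9, and the right panel the ribosomal protein UMIs of the median cell. NP lies below saline in each range of each panel, and the trend from the first to the fifth range is up on the left (3.71% to 4.85% in saline) and down in the middle (5.90% to 5.49%).

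The NP share was below the saline share in each of the 5 ranges. The log2 ratios were -0.21, -0.35, -0.32, -0.28 and -0.27, each with an interval no wider than 0.01 to either side. With the ranges weighted by the saline UMIs, so that both libraries had the same weight per range, the ratio was -0.27, from 3.82% and 3.17%. It was -0.20 without S100a8 and S100a9. Interferon response genes moved with the library: they made up 0.0536% of saline and 0.0800% of NP UMIs in the first range, and 0.175% and 0.715% in the fifth. NP neutrophils were also split into 5 nearly equal groups by the interferon share of their UMIs. From the lowest to the highest interferon share, ribosomal protein genes made up 3.30%, 3.08%, 3.23%, 3.38% and 3.48% of the other UMIs. These groups also differed in median depth, from 12459 to 3985 UMIs, and in median maturation index, from 0.584 to 0.983. In saline the ribosomal protein shares of the lowest and the highest group were 3.95% and 3.92%. Summed markers of other cells in the fifth range were, in saline and NP, 12.3 and 24.1 CPM for B cells, 46.8 and 93.3 CPM for endothelial cells, and 42.7 and 474 CPM for erythroid cells. They were 25.5 and 20.6 CPM for T cells and 178 and 154 CPM for epithelial cells. The part of these RNAs in the share was not tested.

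The lower share in NP neutrophils was spread over most of the genes. All 81 members had at least 200 UMIs in neutrophils, and 53 had a log2 ratio of CPM at or below -0.25, beside 31.2% of the 7209 genes with as many UMIs. None was at or above 0.25, beside 8.36% of all genes. The median was -0.32 for the members and -0.14 for all genes, so relative to the middle gene the members were lower by less than the raw ratio shows. Scaled to the median of all genes, 20 members were at or below -0.25, beside 15.2% of all genes. In single maturation ranges, 70 of 81 members were lower in NP in all 5 ranges, beside 40.7% of genes with at least 200 UMIs and 45.1% of those with at least 2000.

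Among the small-subunit and stalk members, Rpsa, which encodes the laminin receptor homolog of the small subunit, had 605 CPM in saline and 382 CPM in NP neutrophils. Its log2 ratio was -0.67 (-0.70 to -0.63), the lowest of all members. Rplp0, which encodes the base of the ribosomal stalk that recruits translation factors, had 1269 and 863 CPM, a ratio of -0.56 (-0.58 to -0.53). Its stalk partners were less low, with -0.32 for Rplp1 and -0.38 for Rplp2. Rps4x, an X-linked small-subunit gene, had 349 and 246 CPM, with -0.50.

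In the large subunit, Rpl10a had 89.9 CPM in saline and 58.6 CPM in NP, a ratio of -0.62 (-0.71 to -0.53). Rpl12, whose protein sits at the stalk base, had 103 and 73.1 CPM, with -0.50. Rps6, the classical substrate of S6 kinase, had a ratio of -0.37, near the median of the members.

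A small group stood at the other end. Rps27 had 1384 CPM in saline and 1562 CPM in NP, a ratio of 0.17 (0.16 to 0.19). Rpl37 had 863 and 919 CPM, with 0.09, and Rps29 had 1870 and 1940 CPM, with 0.05. Rpl41, which encodes the shortest ribosomal protein, had 1254 and 1270 CPM, with 0.02. Rpl3l, a paralog of Rpl3, was at 23.5 and 24.7 CPM, with 0.07 (-0.08 to 0.22).

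**Figure D3:**
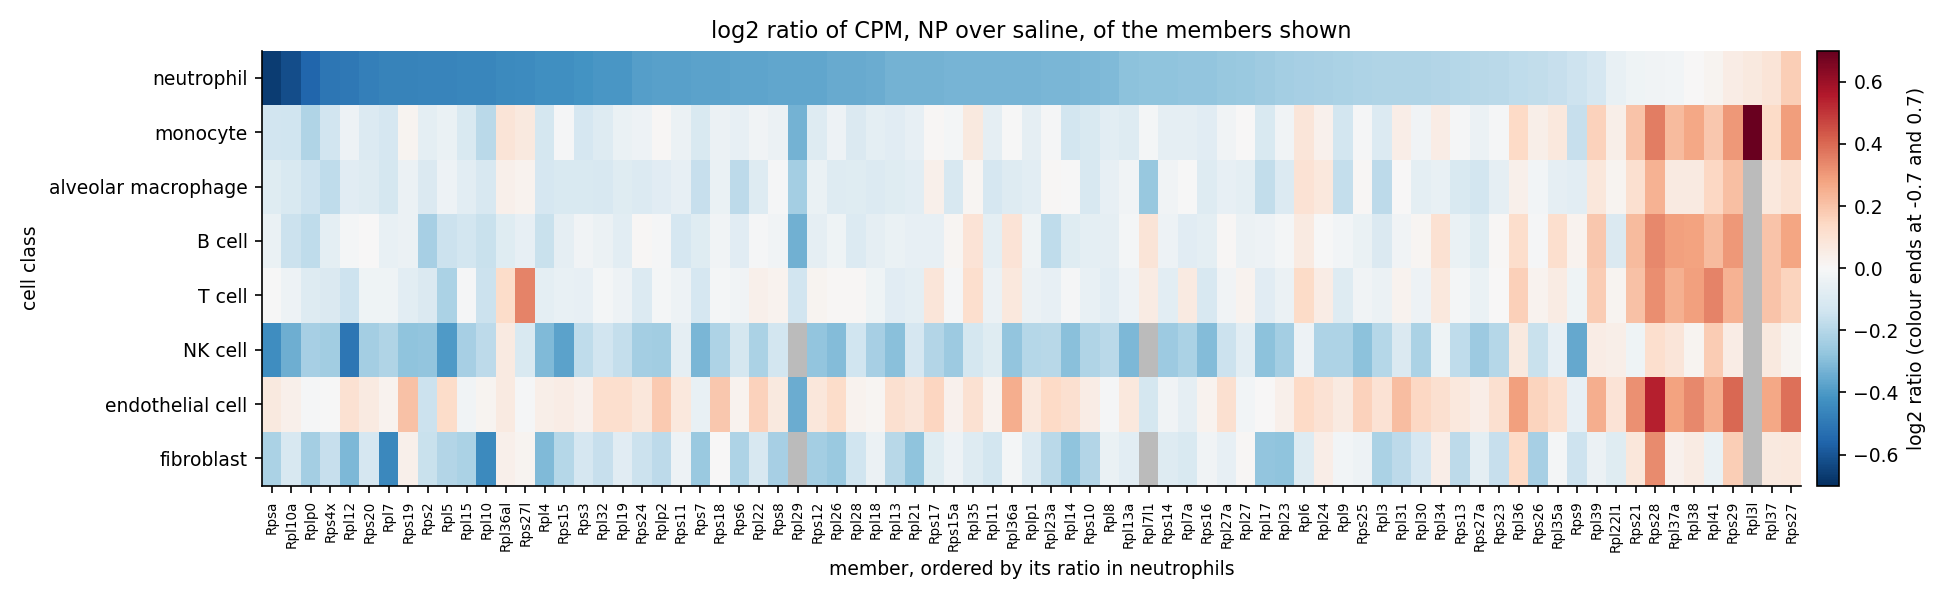
Log2 ratio of CPM, NP over saline (colour, red higher in NP, blue lower), of the members shown (x axis, ordered by neutrophils) in 8 classes with at least 100 cells in each library (y axis); grey marks members with under 200 UMIs in the class. The neutrophil row is blue for all but a few members at the right end, from -0.67 for Rpsa to 0.17 for Rps27, and the members at that end are red in most other classes.

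Translation genes of TOP type were lower in NP neutrophils by about as much as the members, before any scaling to the middle gene. Of 23 such genes, 18 were at or below -0.25 and none at or above 0.25, beside 31.2% and 8.36% of all genes. Their median was -0.35, against -0.14 for all genes. Eef1a1, the main elongation factor that brings tRNA to the ribosome, had 711 CPM in saline and 514 CPM in NP, a ratio of -0.47, and Npm1, a nucleolar chaperone, had 47.6 and 32.4 CPM, with -0.56. The lowest were the initiation factor genes Eif3e at -0.57 and Eif3m at -0.56, and the highest Nap1l1 at 0.12 and Eif4a2 at -0.01. Rps3a1 and Fau, which encode ribosomal proteins outside the symbol rule, had -0.39 and -0.07.

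Of 19 ribosome assembly genes with enough UMIs, 11 were at or below -0.25, beside 31.2% of all genes, with a median of -0.29. Dkc1, which modifies ribosomal RNA, had 370 UMIs in saline and 95 in NP, with a ratio of -0.95 (-1.30 to -0.62), and Rrp1b had -0.86. Nop56 at -0.06 and Polr1a at -0.01 were the highest. Of 59 mitochondrial ribosomal protein genes, 38 were at or below -0.25 and 1 at or above 0.25, beside 31.2% and 8.36% of all genes. Their median was -0.32. Of 78 oxidative phosphorylation genes, 25 were at or below -0.25, with a median of -0.17. The share of oxidative phosphorylation genes at or below -0.25 was thus close to the 31.2% of all genes.

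Among 22 regulators of translation with at least 200 UMIs, 9 were at or below -0.25, beside 31.2% of all genes. At or above 0.25 were 2, beside 8.36% of all genes, so both counts were not far from those shares. Larp1, which binds TOP RNAs, had 364 UMIs in saline and 121 in NP, with -0.58 (-0.89 to -0.28). Mtor had -0.53 from 296 saline and 102 NP UMIs, and the scaffold gene Eif4g1 had -0.51. Tsc2 had -0.49 (-0.92 to -0.07) from 183 and 65 UMIs. Tsc1 had -0.41 from 160 and 60 UMIs, with an interval that includes 0 (-0.86 to 0.03), and Larp4 had -0.40. Eif2ak1 had -0.35, Rheb -0.32 and Eif4ebp1, an inhibitor of cap-dependent translation, -0.26.

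The higher ones were Eif2ak2, the interferon-induced kinase PKR, with 200 UMIs in saline and 218 in NP and a ratio of 1.13 (0.85 to 1.42), and Ppp1r15a, which helps to reverse phosphorylation of eIF2, with 167 and 225 CPM and a ratio of 0.43. Eef2k had 0.24, Atf4 0.12, Eif4ebp3 0.02 and Ddit4 0.02. The remaining 7 had ratios from -0.21 for Rps6kb1 to -0.06 for Eif4ebp2, with Rps6kb2 at -0.20, Eif4a1 at -0.19, Eif4e at -0.18, Eif2ak3 at -0.15 and Pdcd4 at -0.13. For comparison, all 27 measured interferon response genes were at or above 0.25, beside 8.36% of all genes, with a median of 2.20.

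Members were also split by the motif at an annotated start. That base can lie off the start that cells use, so the split cannot tell members that lack the motif. In 27 of the 61 members with an entry, or 44.3%, a run of at least 7 C or T lay within 10 bases of the start. Of all 27025 symbols, 14.2% had such a run. The motif itself was present in 13 members. No conclusion on the motif is drawn from the values. In neutrophils the 13 members with the TOP motif at an annotated start had a median ratio of -0.33, with a range from -0.46 to 0.17, and the 48 with an entry but without it had -0.31, with a range from -0.67 to 0.09. In T cells the medians were -0.01 and -0.02.

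In monocytes, the median member had a ratio of -0.04, against -0.01 for all genes. At or above 0.25 stood 5 of 81 members, beside 14.1% of all genes, and 1 stood at or below -0.25, beside 14.8%. The 5 were Rpl3l with 0.69 from 148 and 432 UMIs, Rps28 with 0.36, Rps29 with 0.30, Rps27 with 0.29 and Rpl38 with 0.27. Rps29 had 6483 CPM in saline and 8002 CPM in NP. The lowest were Rpl29 with -0.33, Rplp0 with -0.21, Rpl10 with -0.19, Rps9 with -0.16 and Rpl10a with -0.14.

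In B cells 80 members had enough UMIs, and again 5 were at or above 0.25, beside 7.25% of all genes, and 1 at or below -0.25, beside 12.3%. Rps28 had 3902 CPM in saline and 4924 CPM in NP, a ratio of 0.34 (0.30 to 0.37). Rps29 had 0.30, Rpl37a 0.28, Rpl38 0.28 and Rps27 0.28. The lowest were Rpl29 at -0.34, Rps2 at -0.23, Rplp0 and Rpl23a at -0.18 and Rpl10 at -0.15.

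In T cells, 4 of 80 members were at or above 0.25, beside 12.4% of all genes, and none at or below -0.25, beside 11.1%. The 4 were Rps27l with 0.35 from 411 and 453 UMIs, Rpl41 with 0.35, Rps28 with 0.33 and Rpl38 with 0.29, and Rpl37a lay just under the limit. Rpl41 had 4426 CPM in saline and 5624 CPM in NP. The lowest were Rpl5 at -0.22, Rpl10 and Rpl12 at -0.15, Rpl29 at -0.14 and Rps7 at -0.12.

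In endothelial cells, 11 of 80 members were at or above 0.25, beside 9.94% of all genes, and 1 at or below -0.25, beside 15.3%. Rps28 had 845 CPM in saline and 1231 CPM in NP, a ratio of 0.54 (0.46 to 0.63), ahead of Rps29 with 0.40, Rps27 with 0.38, Rpl38 with 0.34 and Rps21 with 0.32. The lowest were Rpl29 at -0.35, Rps2 at -0.15, Rpl7l1 at -0.12 and Rpl7a and Rps9 at -0.06. In NK cells no member of 78 was at or above 0.25, beside 14.6% of all genes, and 24 were at or below -0.25, beside 15.7%. Rpl12 was lowest there with -0.51 (-0.64 to -0.38), then Rpsa with -0.43.

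To set aside the total, each member was taken as a share of the ribosomal protein UMIs of its class. In the 8 classes with at least 100 cells in each library, 10 members had a higher share in NP in all 8, namely Rps28, Rps29, Rpl38, Rps27, Rpl37a, Rpl41, Rps21, Rpl37, Rpl39 and Rpl36. Another 20 had a lower share in all 8, among them Rpl10, Rps7, Rpl4, Rplp0, Rps4x, Rps2, Rpl10a, Rpl15 and Rpl12. The remaining 51 were mixed. Genes outside the members have no place in this total, so no share over all genes stands beside these counts. The classes come from the same 2 libraries and are not independent of each other.

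Rps28 was 1.52% of the ribosomal protein UMIs of saline monocytes and 1.96% of those of NP, and 1.27% and 1.58% in B cells. It was 1.49% and 1.85% in T cells, and 0.953% and 1.27% in endothelial cells. Its log2 ratio within the total ranged from 0.20 to 0.43 over the 8 classes, with a median of 0.31. The lowest was that of neutrophils, where it was 0.06 as a mean over cells and 0.03 in cells of 2000 to 8000 UMIs. Rps29 ranged from 0.21 to 0.31, and Rps27 from 0.14 in T cells to 0.40 in neutrophils. In neutrophils, 10 members were at least 0.25 away from the total in either direction. The higher ones were Rps27 at 0.40, Rpl37 at 0.32, Rpl3l at 0.30 and Rps29 at 0.28, and Rpsa at -0.44, Rpl10a at -0.39, Rplp0 at -0.33, Rps4x at -0.28 and Rpl12 at -0.27 were the lowest.

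In the free RNA of barcodes under 50 UMIs, all 10 members that were higher in the 8 classes were also higher, and 18 of the 20 that were lower were also lower. The exceptions were Rpl10a at 0.03 and Rpl13 at 0.01. The other 51 members had values of both signs there, and these counts were not set beside a background. Rps28 had a log2 ratio within the total of 0.43 there, Rpl38 0.30, Rps29 0.20 and Rps27 0.17, while Rplp0 had -0.23 and Rpl10 -0.16. The lowest there were Rpl3l at -0.63 and Rps9 at -0.44, which went in different directions in different classes. With 1 library per group, treatment and library cannot be told apart.

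Transcript length moved with this pattern. By GENCODE vM21, Rps28 has a transcript of 271 bases, Rps27 and Rpl38 345 bases each and Rps29 390 bases, against 1358 bases for Rplp0 and 1599 bases for Rpsa, with a median of 680 bases over the members. Each length is that of 1 annotated protein-coding transcript, a principal one where marked, and the shortest of several. It need not be the transcript that was counted, and Rps20 has 3706 bases by this choice. Across the tested members of each class, Spearman's rho between length and the ratio within the total was -0.34 in neutrophils (81 members), -0.52 in monocytes (81), -0.36 in B cells (80), -0.47 in T cells (80) and -0.48 in endothelial cells (80), and -0.46 in the barcodes under 50 UMIs. Pearson's r with log2 length was between -0.36 and -0.51 in the 8 classes. These are descriptions across genes of the same 2 libraries.

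The 19 members with transcripts under 500 bases, summed, had ratios of -0.10 in neutrophils, 0.13 in monocytes, 0.14 in B cells, 0.11 in T cells and 0.24 in endothelial cells. The longer members had -0.28, -0.05, -0.03, -0.02 and 0.08. Among genes outside the members, those with transcripts under 500 bases had a median ratio of 0.13 in T cells, against 0.00 for those of 2000 to 4000 bases. It was 0.10 against 0.02 in NK cells, 0.11 against 0.02 in fibroblasts and 0.02 against -0.04 in endothelial cells. The gap was smaller in B cells, at -0.01 against -0.04, and in neutrophils, at -0.075 against -0.124. Monocytes had -0.001 against -0.006, and in alveolar macrophages the order was turned, with -0.022 against -0.016. The part of length in the ratios was not tested further.

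**Figure D4:**
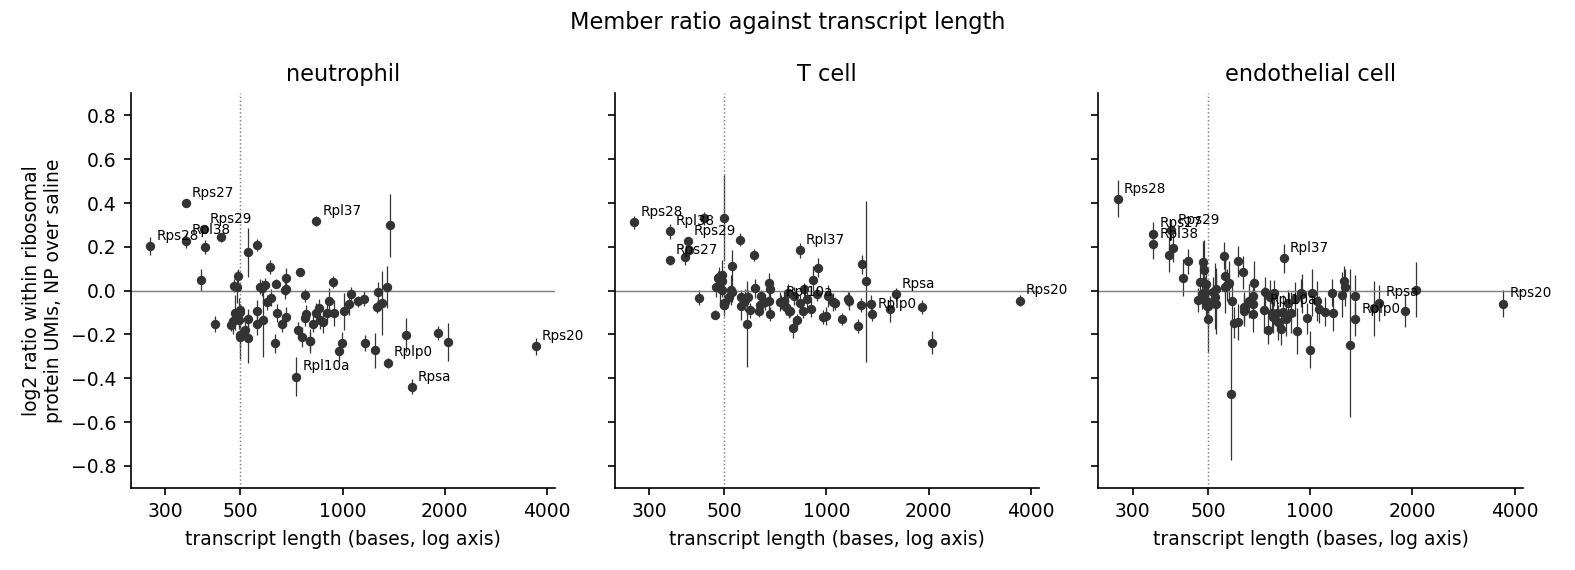
Log2 ratio, NP over saline, of each member within the ribosomal protein total (y axis) against its transcript length in bases (x axis, log scale; dotted line at 500) in neutrophils, T cells and endothelial cells. Points are members and bars 95% intervals for counting error. Rps28, Rps29, Rps27 and Rpl38 lie at the upper left in each panel, and Rpsa and Rplp0 are lowest at the right in neutrophils, at -0.44 and -0.33.

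The make-up of the ribosomal protein RNA differed between cell types. Over the 8 classes, Rpl3l had the largest SD of its log2 share, 2.51 in saline and 2.64 in NP. This SD rests on the floor of 3 counts, since its lowest class had 1 UMI in saline and 0 in NP. It made up 0.0616% of the total in saline neutrophils and 0.0757% in NP neutrophils, but 0.000346% in saline T cells, from 4 UMIs. Rpl3l is known as a form of Rpl3 made in heart and skeletal muscle. Its partner Rpl3 was the reverse, with 0.165% and 0.167% in neutrophils and 0.943% and 0.883% in monocytes.

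Rps9 came next among the abundant members. It was 8.71% of the ribosomal protein UMIs of saline neutrophils and 9.23% of those of NP neutrophils, more than any other member there, but 1.46% and 1.41% in T cells and 2.75% and 2.46% in monocytes. Its SD was 0.88 in saline and 0.93 in NP. Rps27l, a p53-inducible paralog of Rps27, had SDs of 1.19 and 1.13, with 0.319% in saline endothelial cells and 0.0356% in saline T cells. Rpl7l1 had 0.92 and 0.86, with 0.0727% in neutrophils and 0.0115% in T cells of saline.

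Neutrophils set most of these extremes. Among the members for which they had the lowest share in both libraries were Rpl3, Rpl12, Rpl36al, Rpl10a, Rpl22l1, Rpl14 and Rpl36a. Rpl36al was 0.127% and 0.110% in neutrophils and 0.585% and 0.623% in monocytes, and its partner Rpl36a 0.243% and 0.227% in neutrophils and 0.798% and 0.873% in endothelial cells. Rpl22l1 was 0.108% and 0.122% in neutrophils and 0.436% and 0.441% in fibroblasts, while Rpl22 ranged from 0.433% to 0.882%. Rpl7, partner of Rpl7l1, stayed between 0.824% and 1.19% in all 8 classes.

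Large-subunit members had 0.903 UMIs for each small-subunit UMI in saline neutrophils and 0.881 in NP. In the other 12 classes this ratio was between 1.09 and 1.32. The small-subunit member Rps9 alone was 8.71% and 9.23% of the neutrophil total, against 2.75% and 2.46% in monocytes. The ratio without Rps9 was not computed.

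The most even members were Rps23, Rpl30, Rpl39, Rpl26 and Rpl23, with SDs of 0.10 to 0.12 in both libraries. The 5 members with the most UMIs over both libraries were Rps29 with 830636, Rps9 with 610742, Rps27 with 586399, Rps24 with 496106 and Rpl41 with 493675. Levels of different members are not corrected for length, and reads that also match one of the many processed pseudogenes of ribosomal protein genes can be lost in counting, so the share of a member compares across cells better than across members. Several members overlap other genes; Rps28, for example, overlaps Kank3 on the other strand.

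Members also parted ways along neutrophil maturation. From the first to the fifth range of saline, 52 of 81 members were higher by at least 0.25 and 16 lower, beside 76.5% and 13.4% of the 5058 genes with at least 200 UMIs. In NP 40 were higher and 22 lower, beside 71.9% and 16.3% of 3662 genes. The median was 0.36 for the members in saline and 0.24 in NP, against 0.94 and 0.82 for all genes. The median member was thus lower at the mature end relative to the middle gene. These ratios are of all UMIs. S100a8 and S100a9 took 37.08% of them in the first range and 11.68% in the fifth in saline, and 40.40% and 13.33% in NP. Leaving these 2 genes out lowers the ratio of every member by the same amount within a library. Counts of members without them were not made, so the numbers higher and lower depend on the total.

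Rpsa had the steepest decline, from 985 CPM in the first range of saline to 362, 254, 235 and 235 CPM, and from 676 to 198, 159, 179 and 163 CPM in NP. The log2 ratios of the fifth to the first range were -2.07 (-2.17 to -1.97) and -2.06 (-2.19 to -1.93). Most of the difference lay between the first and the second range. Rps20 followed with -1.40 and -1.36, Rplp0 with -1.20 and -1.18, Rps18 with -1.07 and -1.38, and Rpl4 with -1.04 and -1.30. Rplp0 went down evenly, from 1548 to 1297, 975, 807 and 674 CPM in saline.

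Rps27 went the other way, from 774 CPM in the first range of saline to 1308, 1943, 2405 and 2869 CPM, and from 835 to 2904 CPM in NP. Its ratios were 1.89 and 1.80, and the libraries differed by at most 0.11 in any range. Its paralog Rps27l went from 31.5 to 187 CPM in saline and from 29.2 to 112 CPM in NP, with ratios of 2.57 (2.41 to 2.73) and 1.95 (1.72 to 2.18). Rps27l was lower in NP by 0.11 in the first range and by 0.69 to 1.02 in the others, the widest gap of any member in a single range.

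Rpl30 had ratios of 1.27 and 1.07, and Rpl17 had 0.91 and 1.05. Rps9 had 0.76 and 0.88, from 2580 to 4366 CPM in saline. Rpl3l was highest in the second range, with 20.6, 30.1, 24.6, 22.1 and 20.1 CPM in saline and 20.8, 33.2, 24.4, 26.9 and 24.1 CPM in NP. Of the stalk partners, Rplp1 had 0.30 and 0.36 and Rplp2 0.35 and 0.01, above the -1.20 and -1.18 of Rplp0. The sign of such small ratios depends on whether S100a8 and S100a9 are in the total. Rps6 had 0.27 and 0.12.

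**Figure D5:**
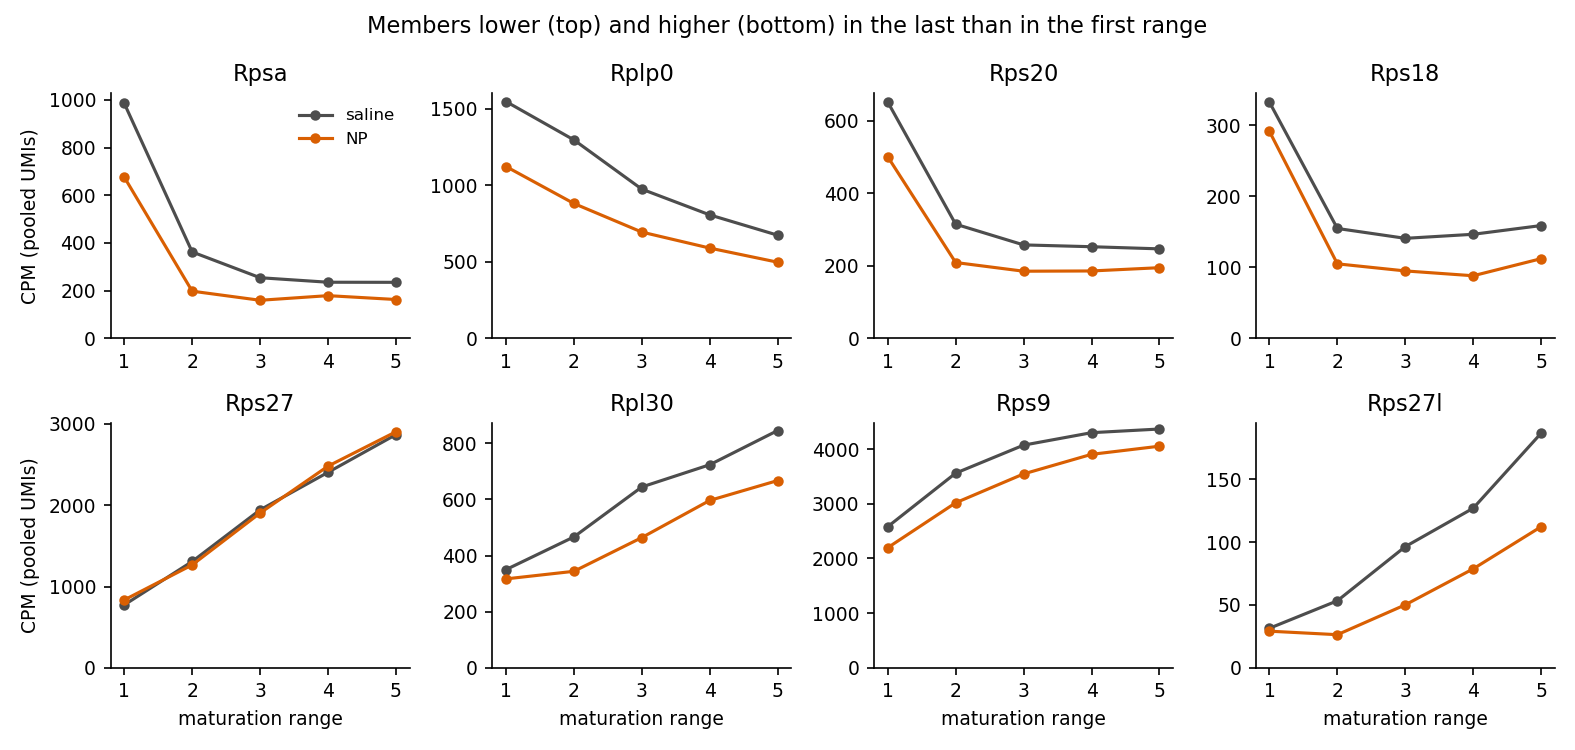
CPM (y axis, each panel from 0) of 8 members in neutrophils over 5 ranges of the maturation index (x axis), saline in grey and NP in orange, from pooled UMIs. Rpsa, Rplp0, Rps20 and Rps18 decline, Rpsa from 985 to 235 CPM in saline, and Rps27, Rpl30, Rps9 and Rps27l climb, Rps27 from 774 to 2869 CPM; NP lies below saline at each point of 7 panels, and the libraries nearly coincide for Rps27.

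Rpsa and Rplp0 were both low in NP and low at the mature end. A larger part of NP than of saline neutrophils lay in the fifth range, and a smaller part in the first. Within a range maturity was not equal, as Camp in the first range shows, and the part of maturation in the ratios was not tested. Rpsa had ratios from -0.87 to -0.40 over the 5 ranges, Rplp0 from -0.56 to -0.44, Rpl10a from -0.89 to -0.51, Rps4x from -0.52 to -0.39 and Rpl12 from -0.73 to -0.34. Rps28, Rpl38 and Rpl22l1 were higher in NP in the first range, with 0.14, 0.13 and 0.12, and lower in the other 4. The same held for Rps29, Rpl37a, Rps21 and Rpl41, with 0.10, 0.09, 0.03 and 0.02 in the first range.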

How the data were processed

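Lungs were measured by 10x Chromium single-cell RNA sequencing, with 1 saline and 1 NP library. The authors mapped the reads with Cell Ranger (6.0 by the processing notes, 4 by the matrix header) to mm10 and deposited raw counts of UMIs per gene and barcode, with no normalization and no cells selected. The libraries held 91168129 and 90081747 UMIs. Groups follow the treatment label.

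Counts were analysed in Python 3.11.15 with scanpy 1.11.5, leidenalg 0.10.2, anndata 0.12.19, scipy 1.17.1, igraph 0.11.9, pandas 2.3.3, numpy 2.4.6, scikit-learn 1.9.0 and, for figures, matplotlib 3.10.9. Cells had 500 to 5000 genes and under 7.5% mitochondrial UMIs. Counts were scaled to 10000, log transformed, and 2000 variable genes without ribosomal protein genes gave 30 components, a graph of 20 neighbors and Leiden clusters at resolution 1, without integration. A cluster took the class with the highest mean log2 marker fold over the median cluster. It stayed unnamed with under 3 markers raised, with more markers of another class among its top 10 genes, where a second class reached 0.6 of the score with a marker among those 10, or where at least 2 of the 10 were granulocyte progenitor genes. The study's own cluster labels were not used, so differences from it may come from names rebuilt here. Doublets were kept; Scrublet in scanpy marked 1 saline and 307 NP cells with its automatic thresholds.

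Shares are pooled UMIs of a class with exact binomial intervals. Ratios are log2 of pooled CPM, with a count under 3 set to 3, and genes needed 200 UMIs in the class. At or past 0.25 in size is a rule of size, since 1 library per group allows no test, p-value or standard error. The scripts were tested on simulated data. Named members are the 5 highest and lowest of each comparison, the paralogs with their partners, the stalk genes, Rpsa, Rps6 and the most abundant. The members and lists were chosen with earlier results of these data known. Lengths and positions are from GENCODE vM21, start windows from RefSeq on GRCm38.p6, with the first listed start where a gene has several; protein sequences were not used here. A few genes are counted in the totals but not reported here by name. Alternatives are given in the closing section.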

Additional observations from a re-analysis of the deposited data

Results flagged for a closer look

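The barcodes with under 50 UMIs, which no comparison of cells uses, held ribosomal protein RNA at 11.64% of their UMIs in saline and 14.05% in NP. Both values are above the share in neutrophils and below that in monocytes and lymphocytes of the same library.

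The log2 ratio of the ribosomal protein share, NP over saline, was -0.23 in neutrophils and 0.12 in endothelial cells, in opposite directions. With 1 library per group this difference between the classes was not tested.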

How the results depend on the processing

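No paired analysis was possible because each group is 1 library, and no replicate could be left out. The neutrophil log2 ratio of -0.23 became -0.22 with 200 detected genes or with ribosomal protein genes outside the symbol rule added, -0.23 with a 5% mitochondrial limit or a shared doublet threshold, -0.21 with a 15% limit or resolution 0.5, -0.20 without S100a8 and S100a9, at resolution 2 or with ribosomal protein genes kept for clustering, -0.18 with cells named one by one, -0.26 as a median over cells, -0.29 at 2000 to 8000 UMIs and -0.34 with 5% free RNA subtracted.

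With the maturation ranges weighted alike in both libraries, -0.27 became -0.25 with 200 or 800 genes or the 15% limit, -0.27 with the 5% limit or shared doublet threshold, -0.20 without S100a8 and S100a9, -0.28 over median cells, -0.34 at 2000 to 8000 UMIs, -0.39 with free RNA subtracted, -0.26 with the added members or the early list alone and -0.29 with 10 ranges. The fifth over the first range reversed without S100a8 and S100a9, to -0.10 in saline and -0.22 in NP. Otherwise 0.39 in saline became 0.34 with 200 genes, 0.29 with 800, 0.35 with the 15% limit or the early list alone, 0.57 over median cells, 0.38 with the shared doublet threshold, 0.45 with free RNA subtracted, 0.48 with the added members, 0.33 with 10 ranges and 0.28 over sub-clusters. In NP 0.32 became 0.25, 0.15, 0.25, 0.31, 0.52, 0.40, 0.42, 0.26 and 0.31 with 200 genes, 800 genes, the 15% limit, the early list alone or the 5% limit, median cells or 2000 to 8000 UMIs, free RNA, added members, 10 ranges and sub-clusters, and 0.30 with a late list free of stress genes.

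The 53 low members became 20 under scaling by the median ratio or TMM-like scaling and 4 at a limit of 0.5. The 10 members away from the total became 19 as a mean over cells and 17 at 2000 to 8000 UMIs. Over all settings run, the ratio of endothelial cells was 0.088 to 0.302 (the highest at resolution 0.5, larger in size than that of neutrophils), of B cells 0.016 to 0.142 (5% limit) and of NK cells -0.193 to -0.091 (200 genes). Rps28 within the total of neutrophils went from 0.204 to 0.062 as a mean over cells and 0.027 at 2000 to 8000 UMIs. At 2000 to 8000 UMIs the high members went from 11 to 5 in endothelial cells and from 4 to 1 in T cells. Among members with transcripts of 500 bases or more, 3 of 61 were high in endothelial cells and 0 of 61 in T cells. In B cells 1 of 61 was high and in monocytes 1 of 62, while 44 of 62 were low in neutrophils. Small ratios of other classes reversed. Monocytes had 0.002 with 200 genes, 0.013 with the 15% limit, 0.005 at 2000 to 8000 UMIs and 0.019 without doublets by automatic thresholds. Alveolar macrophages had 0.028 with cells named one by one. T cells had -0.092 over median cells, -0.037 at 2000 to 8000 UMIs and -0.016 with cells named one by one, and fibroblasts had 0.084, 0.077 and 0.122 with 200 genes, over median cells and named one by one. The causes were not tested. The shared doublet threshold and the limit of 500 bases on transcript length were chosen after seeing the data. Counting error is small at this depth, and with 1 library per group the spread between animals or libraries is unknown for every comparison.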
